A study of Mus musculus with 10 samples.

Results

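Keratins and keratin-associated proteins are encoded in a few dense gene arrays, and 172 windows of 5 kb, named for 97 genes, cover them among the 544879 windows in which H3K4me3 was measured in mouse germinal vesicle (GV) oocytes. The rule that selects them uses gene names and no measured value, and takes every window on chromosomes 1 to 19 whose gene is Krt followed by a digit or begins with Krtap. They fell into 5 places, with 78 windows on chromosome 11, 63 on chromosome 15, 24 on chromosome 16, 6 on chromosome 7 and 1 on chromosome 10. Of the 97 genes, 50 are keratins and 47 are keratin-associated genes, and 95 are annotated as protein-coding and 2 as pseudogenes.

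The oocytes came from 21-day-old females, labelled C57BL6 and kept on a C57BL/6OlaHsd background per the study's methods, in pools of about 200, and the study asked what loss of the H3K4 methyltransferase SETD1B does to the mark. The Setd1b cKO females were Setd1b floxed/floxed and Gdf9-Cre positive, and the WT females carried the floxed alleles without Gdf9-Cre per the labels, while the study's methods also admit heterozygous floxed females with Gdf9-Cre as controls. Gdf9-Cre is active in oocytes from early follicle growth onwards, so marks laid down before then were made with SETD1B present. The 3 cKO libraries (replicates 1, 3 and 4) and 3 WT libraries (replicates 1, 2 and 4) of H3K4me3 ULI-nChIP-seq, a native ChIP protocol for small cell numbers, were compared, with 2 input libraries of each genotype.

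Keratins form the intermediate filaments of epithelia, each filament pairing an acidic type I with a basic type II chain. In the mouse the type I genes lie together on chromosome 11 and the type II genes on chromosome 15, where Krt18, a type I gene, sits next to its partner Krt8. Keratin-associated proteins cross-link hair keratins in the hair shaft, and their small genes form arrays of close copies. H3K4me3 marks active and CpG-rich promoters in most cells, and growing oocytes also lay it down in broad domains away from promoters. These gene families are known for epithelia and hair rather than for the germline. Their RNA was not analysed here, so the description of the arrays as silent in oocytes could not be checked.

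The promoters of the genes on which the results turn show how unlike these genes are in CpG, the dinucleotide that H3K4 methyltransferase complexes with CXXC subunits read. The lines give the 250 bases before the RefSeq transcription start (GRCm38.p6), 5′ to 3′ on the gene's strand, with every CG in capitals. Krt26 and Krt27 hold the windows that lost the mark, Krt12 lies at the border between the high and the low stretch of chromosome 11, Krt7 and Krt18 had the most CG among the keratin promoters examined, and Krtap4-16 had none.

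Krt26, chr11:99337966-99338215, minus strand: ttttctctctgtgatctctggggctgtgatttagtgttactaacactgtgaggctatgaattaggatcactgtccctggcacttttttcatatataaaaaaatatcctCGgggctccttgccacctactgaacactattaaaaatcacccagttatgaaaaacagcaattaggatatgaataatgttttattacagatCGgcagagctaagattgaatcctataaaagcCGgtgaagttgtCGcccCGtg

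Krt27, chr11:99351119-99351368, minus strand: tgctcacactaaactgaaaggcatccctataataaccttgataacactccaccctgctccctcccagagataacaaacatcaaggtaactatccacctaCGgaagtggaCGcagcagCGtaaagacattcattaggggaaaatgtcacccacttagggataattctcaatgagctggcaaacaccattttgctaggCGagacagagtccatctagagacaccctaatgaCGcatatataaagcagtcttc

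Krt12, chr11:99422260-99422509, minus strand: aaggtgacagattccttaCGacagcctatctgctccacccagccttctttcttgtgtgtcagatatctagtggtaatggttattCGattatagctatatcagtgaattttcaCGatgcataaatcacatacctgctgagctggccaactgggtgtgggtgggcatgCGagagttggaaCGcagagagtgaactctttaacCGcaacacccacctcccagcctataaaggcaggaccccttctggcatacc

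Krt7, chr15:101412153-101412402, plus strand: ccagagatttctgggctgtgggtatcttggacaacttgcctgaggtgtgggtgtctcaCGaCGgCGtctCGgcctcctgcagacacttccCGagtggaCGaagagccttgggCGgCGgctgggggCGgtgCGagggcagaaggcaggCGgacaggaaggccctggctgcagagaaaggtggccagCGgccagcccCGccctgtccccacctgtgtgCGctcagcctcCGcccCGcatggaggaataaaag

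Krt18, chr15:102027966-102028215, plus strand: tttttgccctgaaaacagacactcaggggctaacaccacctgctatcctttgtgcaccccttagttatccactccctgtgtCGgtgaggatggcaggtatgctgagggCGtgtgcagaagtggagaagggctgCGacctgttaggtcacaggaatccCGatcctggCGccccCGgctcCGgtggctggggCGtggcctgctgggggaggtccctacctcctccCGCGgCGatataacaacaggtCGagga

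Krtap4-16, chr11:99851606-99851855, minus strand: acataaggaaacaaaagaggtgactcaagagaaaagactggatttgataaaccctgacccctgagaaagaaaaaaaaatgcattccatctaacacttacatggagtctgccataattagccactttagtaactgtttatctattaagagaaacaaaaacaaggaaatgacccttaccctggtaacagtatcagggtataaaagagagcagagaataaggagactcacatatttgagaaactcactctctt

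The dinucleotide CG, which reads the same on both strands, occurred 16 times before Krt7, 12 times before Krt18, 6 times before Krt12 and 5 times before each of Krt26 and Krt27. RefSeq promoters were matched for 76 of the 97 genes. At least 1 CG was found in 34 of 34 keratin promoters, with a median of 4, and in 29 of 42 keratin-associated promoters, with a median of 1. Across all 32851 RefSeq promoters of the same length 92.1% held at least 1 CG, with a median of 6.

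Each value is the deposited normalized RPKM of a 5 kb window, scaled by the authors so that low and high percentiles coincide between libraries. A window without reads can therefore stand above or below 0, from -1.02 to 0.81 depending on the library. It stood at 0.785, -1.02 and -0.700 in cKO (replicates 1, 3 and 4) and at 0.810, -0.0359 and 0.300 in WT (replicates 1, 2 and 4). An empty window therefore has a negative cKO minus WT difference from the scaling alone. Only differences, not ratios, of these values are given. The median over all windows was 1.46 in WT, and the median over keratin windows was 2.47. The H3K4me3 libraries held 10856015 to 32775874 reads in windows, and the median keratin window held 22.0 to 74.5 reads per library. At the Setd1b promoter window the mark was at 3.93 to 4.66 in cKO and 6.11 to 7.65 in WT (adjusted p = 0.0332 from limma), which reports on the mark and not on the deletion itself. Of the 10 oocyte markers examined, every promoter window was at 4.32 or above in WT, with a median of 6.11 in WT and 4.88 in cKO, and 7 of the 10 gene means were lower in cKO with 0 past the test, where 0.523% of all genes lost the mark. For 8 granulosa cell markers the summed gene means were 30.9 to 32.8 in cKO and 22.2 to 24.8 in WT, with 8 of 8 higher in cKO and 1 past the test, where 58.96% of all genes were higher and 1.39% gained the mark. The promoter window of the granulosa marker Foxl2 was also higher in cKO (difference 2.85, adjusted p = 0.0415 from limma). Of 5 ovarian surface epithelium markers, Msln gained the mark (difference 1.89, adjusted p = 0.0491) and Upk3b lost it (difference -1.89, adjusted p = 0.0493), with summed gene means of 13.58 to 15.09 in cKO and 14.01 to 14.42 in WT. Of 4 skin keratinocyte markers, of which Krt5 and Krt14 are members here, 0 were called, with sums of 8.14 to 9.93 and 7.58 to 9.19. The part of these marker lists in the keratin results was not tested.

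H3K4me3 varied widely between the arrays, whose WT means ran from 2.21 to 4.87, while the cKO minus WT differences of these means lay between -0.589 and 0.415. Single libraries moved these differences: that of chromosome 15, 0.415, was 0.187 without cKO replicate 3, and that of chromosome 16, -0.329, was -0.163 without WT replicate 4 and -0.494 without WT replicate 2. The type II array on chromosome 15 was marked along most of its length, with a mean of 3.56 ± 0.293 (SD, n = 3) in WT and with 90.5% of its windows above the WT median of all windows. The keratin-associated array on chromosome 16 had a WT mean of 2.69 ± 0.331, and the 6 windows of the Krtap5 genes on chromosome 7 had 2.61 ± 0.0932. The single Krtap12-1 window on chromosome 10 stood at 4.87 ± 0.134. The chromosome 11 array had the lowest mean, 2.21 ± 0.0623, and was uneven along its length.

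**Figure D1:**
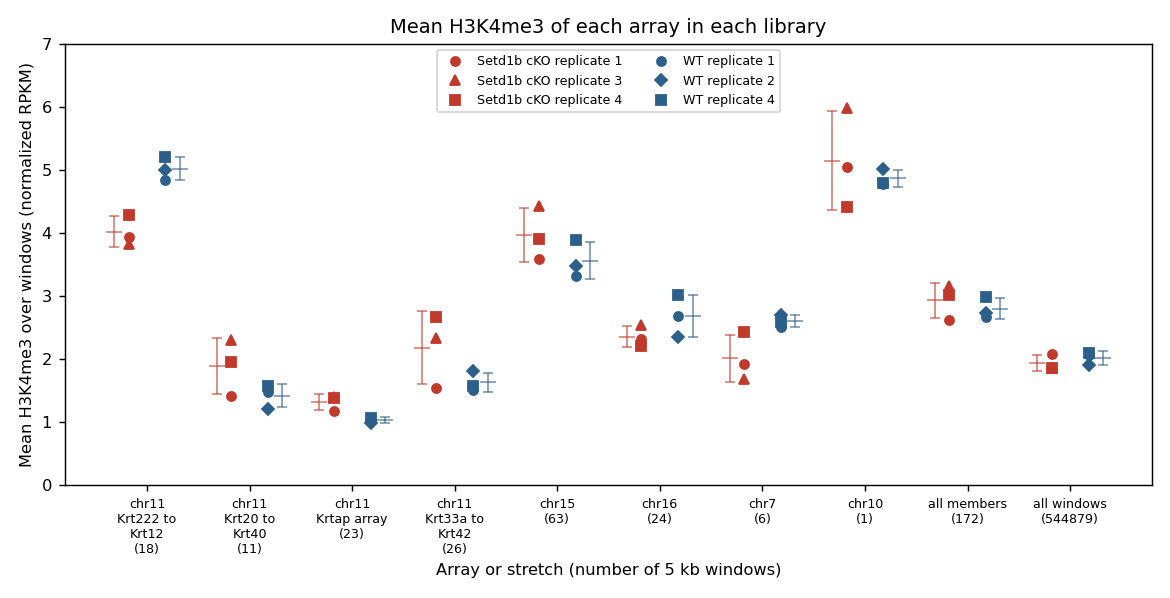
Mean H3K4me3 (normalized RPKM, vertical axis) over the windows of each array or stretch (number of windows in brackets) in the 3 Setd1b cKO and 3 WT libraries, with horizontal ticks for group means and bars for 1 SD. The Krt222 to Krt12 stretch of chromosome 11 lies at 3.83 to 4.30 in cKO and 4.85 to 5.21 in WT, while the Krtap array further along the chromosome stays between 0.992 and 1.40.

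On chromosome 11 the mark was high from Krt222 to Krt12 and low from Krt20 onwards. Over the 18 keratin windows of the first stretch the WT mean was 5.02 ± 0.183 (n = 3), with the highest promoter of the array at Krt25 (7.15 ± 0.751). Over the 11 windows from Krt20 to Krt40 it was 1.42 ± 0.182, over the 23 keratin-associated windows 1.04 ± 0.0425, and over the 26 windows from Krt33a to Krt42 1.63 ± 0.155. The border fell inside Krt12, the keratin of the corneal epithelium: its 3′ window stood at 6.04, 7.26 and 6.20 in WT and its promoter window at 1.28, 1.81 and 1.14. These 4 stretches were drawn after the values were seen.

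**Figure D2:**
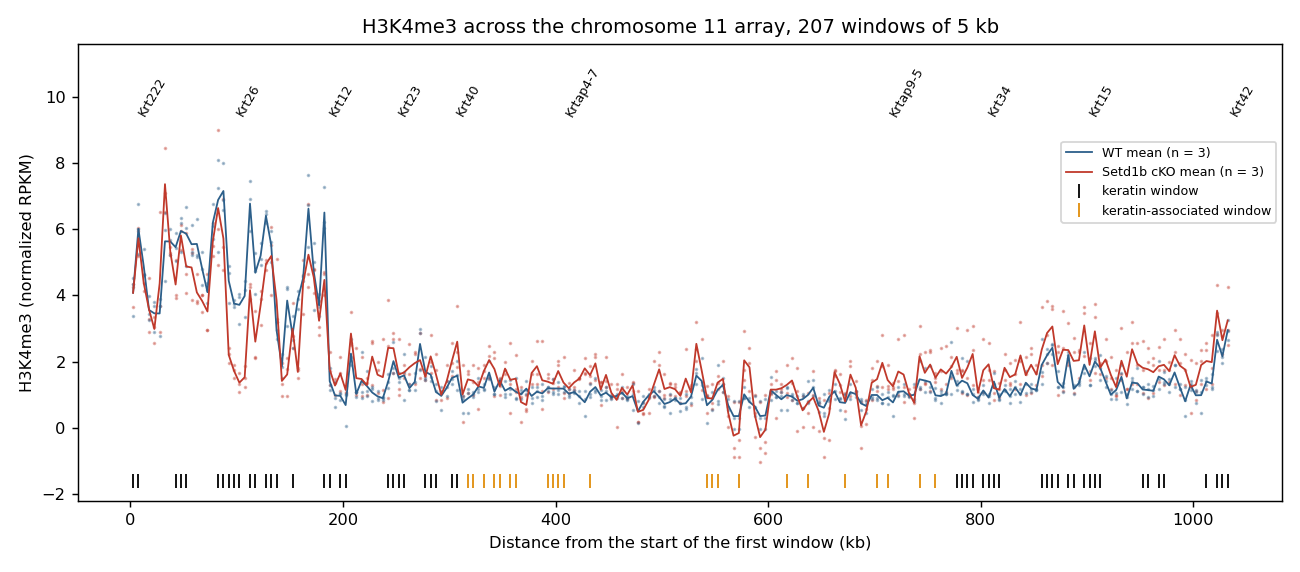
H3K4me3 (normalized RPKM) in 207 consecutive windows of 5 kb across the chromosome 11 array, against distance in kb from the first window, with lines for the mean of 3 WT and 3 Setd1b cKO libraries, dots for single libraries and ticks for keratin and keratin-associated windows. The level is high from Krt222 to Krt12 and low over the rest, and the cKO line lies below the WT line around Krt26.

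The change between genotypes that passed the test lay in the first stretch, at Krt26 and Krt27. Both encode type I keratins of the inner root sheath of the hair follicle, as do Krt25 and Krt28 beside them. Of the 172 keratin windows, 4 lost H3K4me3 in Setd1b cKO (limma, Benjamini-Hochberg adjusted p under 0.05 over all windows), against 0.454% of all windows, and 0 gained it, against 0.563% of all windows. At an unadjusted p under 0.05, 8.72% of keratin windows were lower and 7.56% higher, near the 8.12% and 6.82% of all windows. edgeR on whole reads called 4 lower keratin windows, against 1.22% of all windows it tested, and 0 higher, against 1.07%. These 4 were not the same windows: 3 were those of Krt26, and the other was the Krtap5-2 promoter window (log2 fold change -1.12, adjusted p = 0.0471 from edgeR and 0.0924 from limma) in place of the Krt27 window.

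Krt26 lies at chr11:99328550-99337966 on the minus strand (GRCm38), and all 3 of its windows lost the mark. In the window with its transcription start, chr11:99335001-99340000, the cKO libraries (replicates 1, 3 and 4 in this and later sentences) stood at 1.34, 1.10 and 1.66. The WT libraries (replicates 1, 2 and 4) stood at 3.95, 4.05 and 3.15. The groups did not overlap, and the difference was -2.35 (standard error 0.377, adjusted p = 0.0291). The reads behind these values were 10, 16 and 49 in cKO and 60, 42 and 95 in WT.

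In the middle window of Krt26 the cKO values of 1.51, 1.76 and 1.90 lay near the genome-wide median, while WT was at 3.74, 3.66 and 3.87 (difference -2.03, adjusted p = 0.0290). In the third window, which reaches past the 3′ end, cKO was at 1.95, 2.42 and 2.24 and WT at 4.68, 3.76 and 4.89 (difference -2.24, adjusted p = 0.0363). Input was at 1.78 to 2.24 on average in these 3 windows, close to the 2.07 median of all windows.

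Krt27, at chr11:99345565-99351104 on the minus strand, was the other gene that lost the mark. Its 3′ window, chr11:99345001-99350000, was at 4.33, 4.27 and 3.88 in cKO and at 5.94, 7.46 and 6.92 in WT, which gave -2.61 for cKO minus WT (standard error 0.430, adjusted p = 0.0310). Its promoter window was at 2.12, 2.15 and 3.54 in cKO and at 4.73, 4.05 and 5.28 in WT, with no overlap, but missed the threshold (difference -2.08, adjusted p = 0.0752). edgeR on whole reads did not call the 3′ window of Krt27 (adjusted p = 0.467) and called the 3 Krt26 windows. The calls at Krt26 and Krt27 were lost on both log2 scales and under quantile normalization, and each was lost without any single one of cKO replicates 3 and 4 and WT replicates 1, 2 and 4, while the direction stayed the same.

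Taken as gene means over their windows, the same 2 genes were called. Of the 97 genes, Krt26 (difference -2.21, standard error 0.192, adjusted p = 0.0205) and Krt27 (difference -2.35, standard error 0.266, adjusted p = 0.0247) were lower in cKO, against 0.523% of all 24678 genes. No keratin gene was higher at this threshold in limma, against 1.39% of all genes. At an unadjusted p under 0.05, 8.25% of the keratin genes were higher and 12.4% lower, beside 15.5% and 6.97% of all genes. Without cKO replicate 1, 29.9% of the keratin genes and 21.6% of all genes were higher, and 12.4% and 14.7% lower. These differences in shares were not tested. edgeR on whole reads called 0 keratin genes in either direction, against 0.0167% of all genes gained and 0.00834% lost. Both gene calls in limma were also lost without any single one of cKO replicate 4 and WT replicates 1, 2 and 4.

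**Figure D3:**
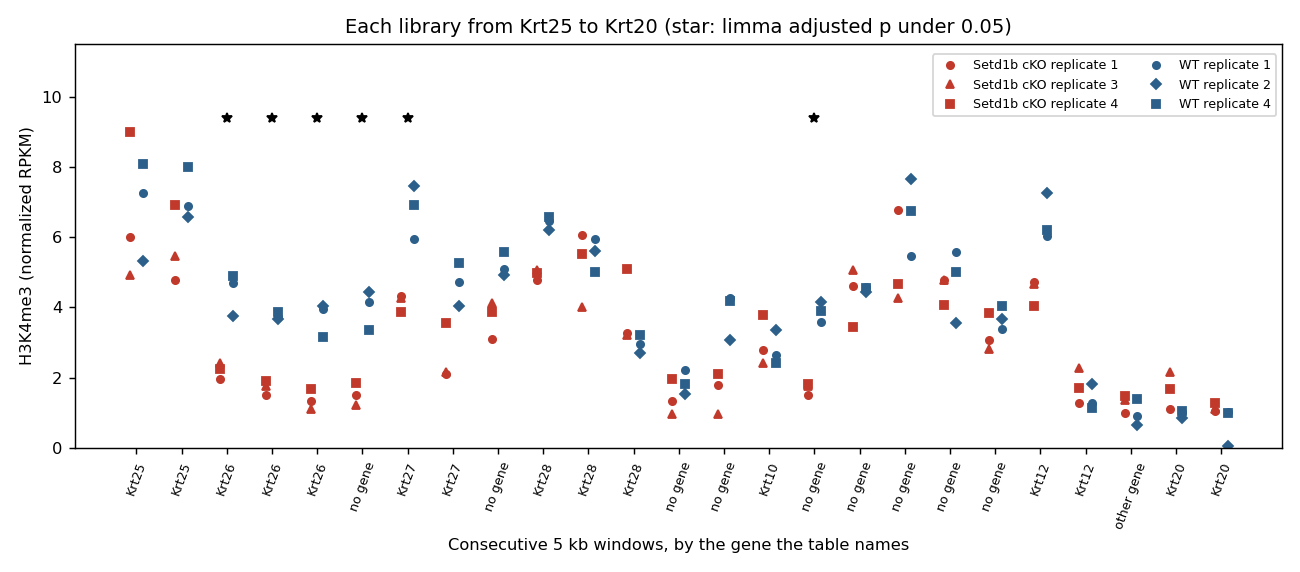
H3K4me3 (normalized RPKM) of each library in consecutive 5 kb windows from Krt25 to Krt20 on chromosome 11, red for Setd1b cKO, blue for WT, with stars over windows at a limma adjusted p under 0.05. From the first Krt26 window to the first Krt28 window, 8 windows in a row have the 3 cKO libraries below the 3 WT libraries.

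The lower level ran through the space between the genes. From the first window of Krt26 to the first window of Krt28, 8 consecutive windows had every cKO library below every WT library. The window between Krt26 and Krt27, which carries no gene name, was at 1.51, 1.23 and 1.86 in cKO and at 4.16, 4.44 and 3.36 in WT (adjusted p = 0.0289). A window just upstream of Krt10 was at 1.51, 1.76 and 1.81 in cKO and at 3.58, 4.15 and 3.90 in WT (adjusted p = 0.0269). These 2 were the only windows without a keratin name called in the chromosome 11 span, and no window was called in the spans on chromosomes 15, 16, 7 and 10 (limma).

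Other genes of the stretch moved less or not in one direction. The first Krt28 window was lower in cKO (4.78, 5.06 and 4.99 against 6.46, 6.19 and 6.56, adjusted p = 0.0680), whereas its promoter window was at 3.28, 3.21 and 5.09 in cKO and at 2.96, 2.69 and 3.21 in WT (adjusted p = 0.452). The promoter window of Krt25 was at 4.78, 5.45 and 6.92 in cKO and 6.88, 6.58 and 8.003 in WT, and the groups overlapped. The 3′ window of Krt12 had 4.72, 4.66 and 4.03 in cKO against 6.04, 7.26 and 6.20 in WT (adjusted p = 0.0546). Krt10, a keratin of the upper epidermis whose single window holds 136 CpGs, was at 2.78, 2.42 and 3.78 in cKO and at 2.64, 3.37 and 2.43 in WT, with no direction. Krt222, at the outer end, was at 5.14, 4.73 and 4.85 in cKO and at 4.32, 5.17 and 5.65 in WT as a gene mean.

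Over the 18 windows from Krt222 to Krt12 the library means were 3.95, 3.83 and 4.30 in cKO and 4.85, 5.001 and 5.21 in WT, so the groups did not overlap. Over the 10 windows of the type I inner root sheath genes they were 3.61, 3.43 and 4.47 in cKO and 5.25, 4.94 and 5.50 in WT. The type II inner root sheath genes on chromosome 15 (Krt71, Krt73, Krt74 and Krt72-ps, 12 windows) stood at 4.08, 5.33 and 4.55 in cKO and at 4.03, 3.97 and 4.75 in WT, and the groups overlapped. On the deposited values, these partner chains had a median window difference of -1.75 on chromosome 11 and 0.209 on chromosome 15. The median over all windows was -0.103. The chromosome 11 group includes the 4 keratin windows called in limma. On whole reads, edgeR log2 fold changes in the chromosome 15 group had both signs, from -0.703 (Krt71) to 0.233 (Krt73). In the chromosome 11 group they were negative except at the Krt28 promoter window (0.202). The contrast between these gene groups was not tested.

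Beyond Krt12 the chromosome 11 values leaned the other way, without a call. Of the 26 windows from Krt33a to Krt42, 25 had a higher cKO mean, but the libraries spread from 1.55 to 2.67 in cKO and 1.51 to 1.81 in WT. The hair keratin Krt33b was at 1.28, 3.08 and 2.34 in cKO and at 1.18, 1.03 and 0.779 in WT in its promoter window (difference 1.24, adjusted p = 0.236). Krt34, another hair keratin, was at 1.45, 2.55 and 1.76 against 0.967, 1.03 and 0.749 (adjusted p = 0.246). One Krt15 window had a difference of 1.18 (adjusted p = 0.242) and the Krt40 promoter window 1.03 (adjusted p = 0.375). In each of these examples cKO replicate 1 was the lowest of the 3 cKO libraries.

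Beyond the first stretch, 5 well-known keratins of chromosome 11 had promoter levels around the WT median of all windows, from 0.909 to 1.81. Krt14, which pairs with Krt5 in the basal layer, was at 1.28, 1.76 and 2.68 in cKO and at 1.70, 1.33 and 1.38 in WT. Krt19, of simple and ductal epithelia, had a WT promoter level of 1.81 ± 0.375 (n = 3) with a difference of 0.00488. Krt15, of basal stem cells, had 1.56 ± 0.473, Krt13, of internal mucosa, 1.18 ± 0.130, and the hair keratin Krt31 0.909 ± 0.0965, with adjusted p between 0.424 and 0.996 for these 5 promoters.

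The keratin-associated array of chromosome 11 was the least marked. Its 23 windows had library means of 1.19, 1.40 and 1.39 in cKO and 1.06, 0.992 and 1.07 in WT, 20 windows were higher in cKO, and the median difference of 0.305 came with 0 calls. Only 4.35% of these windows were above the WT median of all windows. The lowest promoter level of the cluster was at Krtap4-13, where 0, 1 and 7 reads were counted in cKO and 0 in each WT library. Its input level was 0.0925 to 0.463, the only keratin window with a mean input under 1, and the part of mappability in its low value was not tested. The authors kept only reads with a mapping quality of at least 20, and how this filter acts on the close Krtap4 and Krtap9 copies was not tested, so their levels are uncertain.

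The type II array on chromosome 15 was marked at most genes and had no call. Its highest promoter was Krt76 of the oral mucosa (7.35 ± 0.981 in WT, n = 3, and 6.89 in cKO), and its lowest was Krt80 (1.27 ± 0.229 in WT, 1.83 in cKO), a keratin at one end of the array. Krt73, Krt83, a hair keratin now named Krt87, and Krt71 followed Krt76 at 6.80 ± 1.22, 6.62 ± 1.06 and 5.99 ± 0.519. These neighbours in the order lie within their spreads. The hair keratin Krt86 was among the lowest, at 2.10 ± 0.302.

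**Figure D4:**
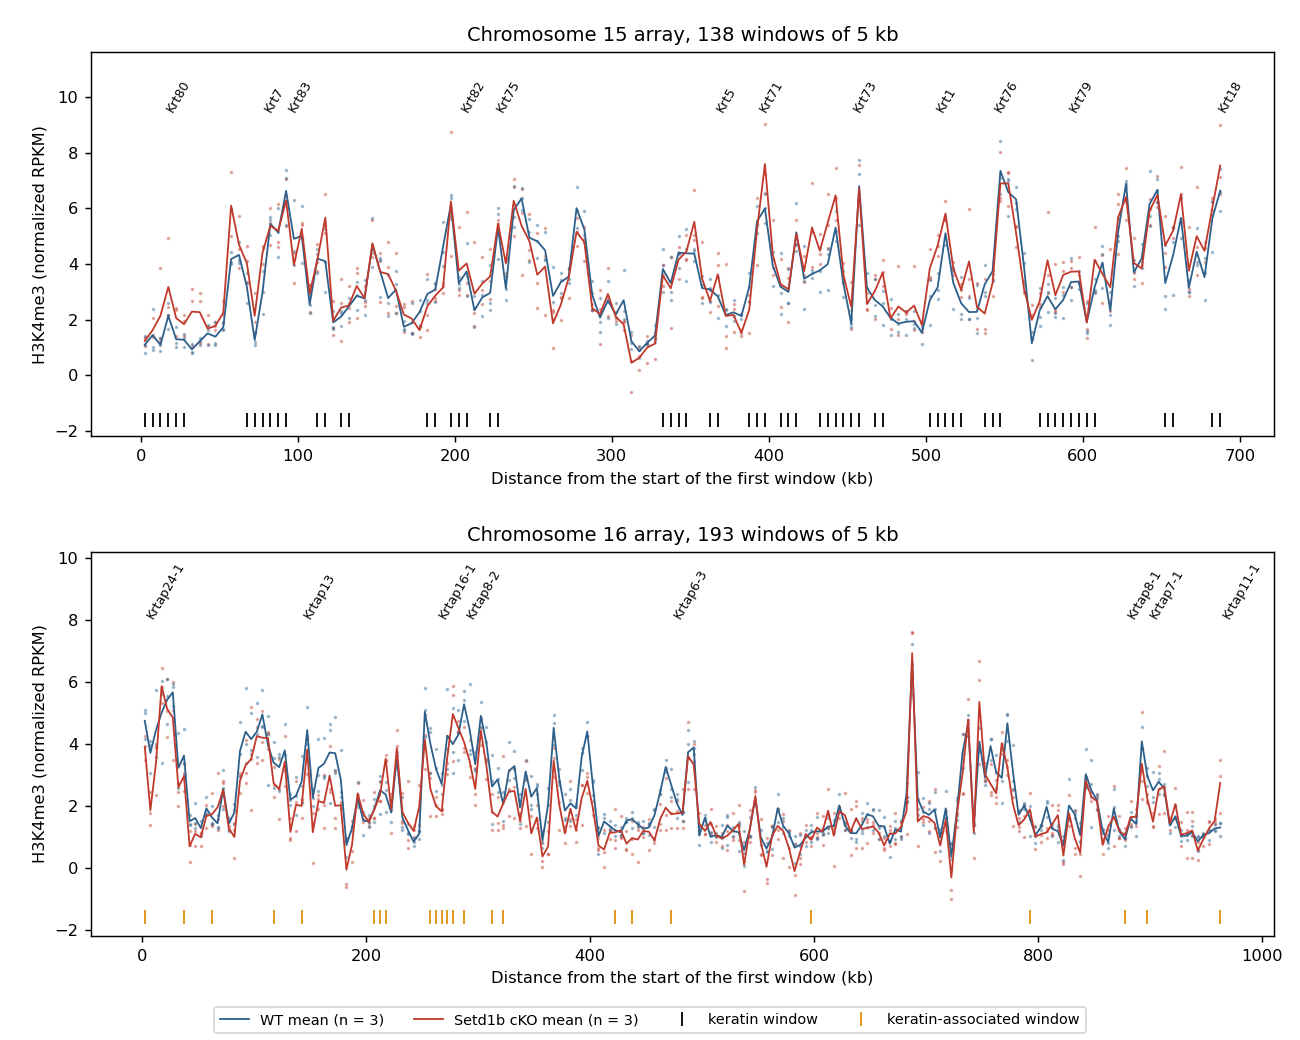
H3K4me3 (normalized RPKM) in consecutive 5 kb windows across the chromosome 15 array (138 windows) and the chromosome 16 array (193 windows), against distance in kb from the first window, with lines for group means (n = 3), dots for libraries and ticks for keratin and keratin-associated windows. The type II array is marked along its length with both genotypes close together, and peaks on chromosome 16 alternate with long low stretches.

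Krt8 and Krt18, the first keratin pair of the embryo and of simple epithelia, were well marked in both genotypes. The promoter window of Krt18, with 136 CpGs, was at 5.94, 6.38 and 5.76 in cKO and at 6.25, 4.44 and 6.23 in WT. That of Krt8, with 127 CpGs, was at 4.94, 5.32 and 5.33 in cKO and at 4.79, 2.88 and 5.28 in WT. WT replicate 2 was the lowest library at both, and the groups overlapped. Krt7, another simple epithelial keratin, was at 4.11, 3.34 and 4.65 in cKO and at 2.59, 3.66 and 3.30 in WT (adjusted p = 0.413).

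Several type II genes had higher cKO values that did not pass the test. Krt1, the type II partner of Krt10 in the upper epidermis, was at 5.06, 4.66 and 4.27 in cKO and at 2.75, 3.66 and 3.06 in WT in its promoter window, without overlap (difference 1.51, standard error 0.385, adjusted p = 0.0957). As a gene mean Krt1 had a difference of 1.33 (standard error 0.253, adjusted p = 0.0536). Krt71 was at 7.22, 9.02 and 6.53 in cKO and at 5.47, 5.996 and 6.504 in WT (difference 1.60, adjusted p = 0.234), a gap of little width between the closest libraries. The hair keratin Krt81 had a difference of 1.57 (adjusted p = 0.235), with overlap. Krt5 had a WT promoter level of 2.83 ± 0.737 and 3.63 in cKO, and Krt4, a mucosal keratin, 2.84 ± 0.510 and 4.13 (adjusted p = 0.491 and 0.408). At the promoter windows of these genes edgeR on whole reads gave log2 fold changes of 0.52 (Krt1), 0.10 (Krt71), 0.21 (Krt81), 0.14 (Krt5) and 0.31 (Krt4).

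The largest decreases on chromosome 15 were small. The 2 Krt76 windows in this group had differences of -1.05 and -0.45 (adjusted p = 0.418 and 0.709), and a window of Krt71 -0.82 (adjusted p = 0.452), so Krt71 held both one of the largest increases and one of the largest decreases. Over the array, 46 windows were higher and 17 lower in cKO, with library means of 3.58, 4.43 and 3.91 in cKO and 3.32, 3.48 and 3.89 in WT. On whole reads, edgeR log2 fold changes in the array had both signs, from -0.87 in a Krt76 window to 1.16 in a Krt80 window. They were -0.0024 and -0.18 at the Krt8 and Krt18 promoters, whose differences on the deposited values were 0.883 and 0.386. The lean of this array alone was not tested on whole reads.

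On chromosome 16, 17 of 24 keratin-associated windows were lower in cKO, with a median difference of -0.636 and 0 calls. The highest promoter was Krtap8-2 (named Krtap19-5 in GENCODE M21), at 4.56, 3.74 and 3.88 in cKO and at 5.41, 4.73 and 5.70 in WT (difference -1.22, adjusted p = 0.175). Krtap16-1 (Krtap19-2) was at 2.28, 2.02 and 1.66 in cKO and at 3.84, 2.49 and 3.24 in WT (difference -1.20, adjusted p = 0.202). Krtap16-2 (Krtap19-1) had the largest decrease, -1.45 (adjusted p = 0.211), with overlap at 3.08. The lowest promoter was Krtap8-1, at 0.929 ± 0.224 in WT.

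At the other end of the chromosome 16 array, Krtap11-1 was at 1.78, 3.47 and 2.96 in cKO and at 1.44, 1.03 and 1.44 in WT (difference 1.44, adjusted p = 0.163). Krtap14 was at 3.45, 3.47 and 3.64 in its promoter window in cKO and at 1.80, 2.79 and 2.52 in WT (difference 1.15, adjusted p = 0.168). Krtap16-4 (Krtap19-4) had 0.971 (adjusted p = 0.491). Library means over the array were 2.33, 2.54 and 2.203 in cKO and 2.68, 2.36 and 3.02 in WT, and the groups overlapped.

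All 6 Krtap5 windows on chromosome 7 were lower in cKO, with library means of 1.93, 1.69 and 2.43 against 2.52, 2.70 and 2.59. The highest promoter was Krtap5-4 (3.74 ± 0.660 in WT) and the lowest Krtap5-1 (2.21 ± 0.168). The Krtap5-2 promoter window had the clearest separation, at 1.28, 0.701 and 1.23 in cKO and 2.28, 2.40 and 2.61 in WT (difference -1.36, adjusted p = 0.0924). Krtap12-1 on chromosome 10 was at 5.06, 5.98 and 4.41 in cKO and 4.79, 5.02 and 4.80 in WT, with the cKO libraries on both sides of WT.

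Over all 172 windows the mean was higher in cKO in 112 and lower in 60, and the median difference was 0.242, beside -0.103 over all windows of the genome. The keratin median was 0.141 without WT replicate 1, 0.146 without cKO replicate 3 and 0.371 without cKO replicate 1. This contrast did not hold on whole reads, where edgeR gave a median log2 fold change of 0.06 over keratin windows, with 96 higher and 75 lower, and 0.09 over all windows. Every cKO library was above every WT library in 19 keratin windows, against 9.88% of all windows, and below in 13, against 9.95% of all windows. On reads scaled to library totals the balance turned, with 9 above (7.08% of all windows) and 18 below (7.89%). Of the 13 on the deposited values, 7 lay between Krt222 and Krt12, 5 on chromosome 16 and 1 on chromosome 7. When limma was run with an intensity trend in the variance, 5 keratin windows were lower (2.01% of all windows), adding the Krtap5-2 promoter, and 2 were higher (1.57% of all windows), the Krt33b and Krtap11-1 promoters.

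CpG content went with the level on chromosome 11 and not on chromosome 15. Spearman's rho between the number of CpGs in a window and its WT level was 0.700 over the 78 chromosome 11 windows, 0.0547 over the 63 chromosome 15 windows, 0.289 over the 24 chromosome 16 windows, and 0.223 over 529282 windows of the genome. These are descriptions across neighbouring windows of the same libraries, which share depth. Keratin-associated windows had median CpG numbers of 19.5 on chromosome 7, 30.0 on chromosome 16 and 41 on chromosome 11, and the chromosome 10 window held 50. The chromosome 15 keratin windows had a median of 60 and a lowest value of 21.

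**Figure D5:**
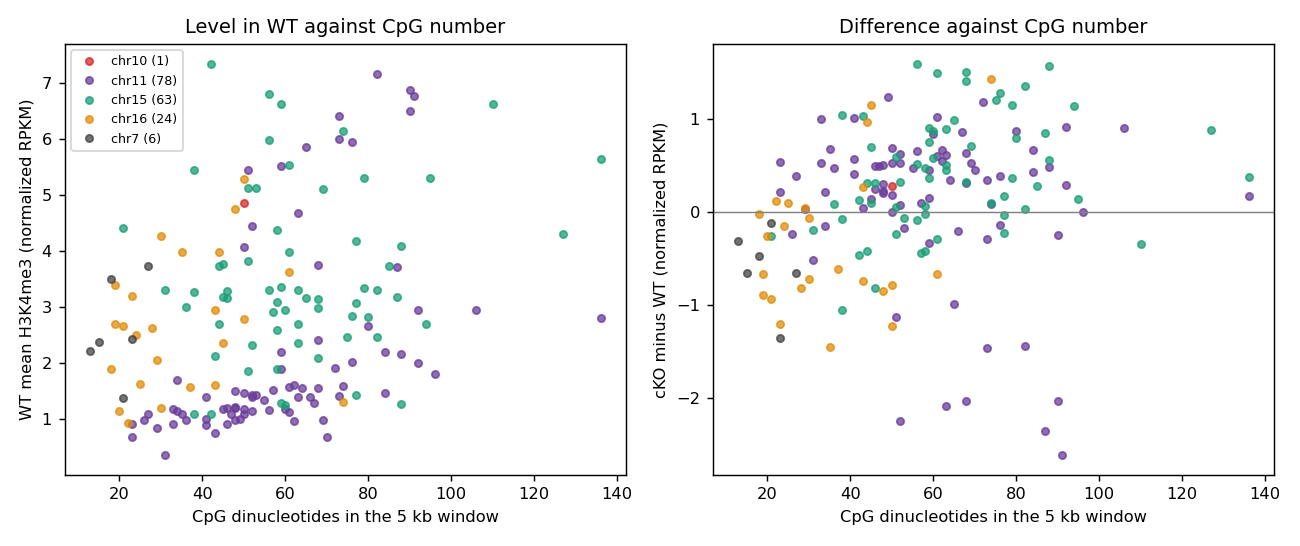
WT mean H3K4me3 (left) and the difference of Setd1b cKO minus WT (right), both in normalized RPKM, against the number of CpG dinucleotides in each of the 172 keratin and keratin-associated windows, coloured by chromosome. Windows with few CpGs lie mostly below 0 on the right, and the lowest points, from chromosome 11, hold 52 to 91 CpGs.

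The difference between genotypes varied with CpG in some arrays. Spearman's rho of CpG number with the difference was 0.292 over keratin windows and 0.304 over the genome, but 0.384 on chromosome 15, 0.097 on chromosome 16 and -0.102 over the 78 windows of chromosome 11. Windows share libraries and neighbours, so these are descriptions. In the 39 keratin windows with up to 38 CpGs the median difference was -0.148, with 25 lower and 14 higher, beside -0.254 in all windows of that class (0 to 39 CpGs). The part of the offset at 0 reads in these negative medians was not tested. In the 45 windows with 60 to 79 CpGs it was 0.505, with 34 higher and 11 lower, beside 0.262 in all windows of the class. The 4 windows that lost the mark went against this, with 52 to 91 CpGs.

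Genes that work with keratins were examined as lists. Of 14 other intermediate filament genes, 2 gained the mark and 0 lost it, where 1.39% of all genes gained it and 0.523% lost it. Nefh, a neurofilament subunit, rose by 1.65 (2.51 ± 0.0682 in WT and 4.15 ± 0.466 in cKO, adjusted p = 0.0407), and Bfsp2, a lens filament protein, by 1.45 (adjusted p = 0.0480). Of 19 desmosome and anchoring genes, 3 gained it and 0 lost it, against the same shares of all genes. In this list 11 genes were higher in cKO and 8 lower, so 57.9% were higher, beside 58.96% of all genes. The median difference was 0.066 in this list and 0.605 in the filament list, beside 0.118 over all genes. The plakophilin Pkp3 rose by 3.02 (2.54 ± 0.180 in WT and 5.56 ± 0.607 in cKO, adjusted p = 0.0247). The desmosomal plaque protein gene Dsp rose by 1.27 (adjusted p = 0.0428), and the linker gene Plec rose by 1.41 (adjusted p = 0.0390).

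Each of these 5 calls was lost in at least 7 of 14 alternative settings, and the adjusted p of Dsp reached 0.847 with edgeR. The 42 genes of the cornified envelope and the other epidermal arrays were little marked (median of gene means 0.974 in WT), with 0 calls of gene means and a median difference of -0.041. Among their promoter windows, that of Crnn was lower in cKO (5.66 in WT and 3.64 in cKO, difference -2.03, adjusted p = 0.0490 from limma over all windows). Of 17 regulators of epidermal and hair keratins, 0 were called as gene means, with a median difference of 0.689 beside 0.118 over all genes (limma for all lists). The promoter window of one of them, Grhl3, was higher in cKO (3.92 in WT and 8.13 in cKO, difference 4.204, adjusted p = 0.0131 from limma over all windows). The Crnn and Grhl3 windows were named after their values were seen. The 97 keratin and keratin-associated genes had a median difference of 0.235.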

How the data were processed

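H3K4me3 and input were measured by ULI-nChIP-seq in GV oocytes. Per the labels, reads were trimmed with Trim Galore 0.4.2 and aligned to GRCm38 with Bowtie2 2.2.9. The authors kept reads with a mapping quality of at least 20, counted them in 5 kb windows and deposited 1 table. The deposited H3K4me3 columns hold a score, the normalized RPKM of the authors, made by percentile scaling: values lie on a straight line in whole reads, with an offset per library, and coincide between libraries at the 40th percentile (1.23) and the 99th (6.77). Its input columns hold the deposited coverage signal, scaled to library totals. Reads were recovered from both, whole within 0.1 read for 100% of values.

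Windows were tested as deposited with limma 3.58.1 (R 4.3.3) on 3 cKO and 3 WT libraries, with no block or intensity trend and Benjamini-Hochberg adjustment over all 544879 windows. Genes were tested likewise on the mean over their windows. The p-values measure the spread between pools of oocytes. Members, lists and named genes were chosen with earlier results of these data known. The text names a fixed set of known keratins, called windows and genes, the genes with the highest and lowest WT promoter level per cluster, and the 3 largest increases and decreases in clusters of at least 10 windows. Other members were named after their values were seen. Gene starts come from GENCODE M21, which names 11 of the 97 genes differently. CpGs were counted in GRCm38.p6, and promoters come from RefSeq. Input columns entered no test. Values after ± are SDs between libraries. The closing section describes the main alternatives. Another limited the fit to chromosomes 1 to 19. For array means, others took every window of the span, only windows overlapping the gene, or only windows with reads.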

Additional observations from a re-analysis of the deposited data

How the results depend on the processing

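The loss at Krt26 and Krt27 kept its direction under the 14 alternatives tried, but its call did not. Over the 172 keratin windows, 4 losses became 0 with log2(value + 1), 0 with log2(value + 0.1) and 0 with quantile normalization. A replicate block gave 11 losses and 2 gains, while calling 3.63% of all windows as losses and 2.51% as gains. The intensity trend gave 2 gains. Leaving out 1 library gave 0 to 5 losses and 0 to 4 gains, with losses called only without cKO replicate 1. Over the 97 genes, 2 losses became 1 with log2(value + 1), and 0 with log2(value + 0.1), the replicate block or edgeR. A minimum mean of 1 gave 1 gained gene, and leaving out 1 library gave 0 to 3 losses and 0 to 9 gains. Adjusted p for the Krt26 promoter window ranged from 0.00111 to 0.437. The causes were not tested.

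The libraries share replicate numbers 1 and 4, and deviations from the group means correlated at 0.319 for replicate 1 and 0.019 for replicate 4. Differently numbered pairs correlated at 0.133, -0.036 and -0.136, so replicate 1 gave the highest value. With only 2 pairs of like number, the numbers were not taken as pairs. On reads scaled to library totals, keratin windows with all cKO libraries above WT went from 19 to 9, and those below from 13 to 18. The median WT promoter level on chromosome 11 went from 1.20 to 1.28 when every transcript start was used. The mean difference over the array kept its sign without any single library on chromosomes 7, 15 and 16, and changed it on chromosomes 10 (-0.135 to 0.650) and 11 (-0.0205 to 0.274). These array means were not taken on whole reads. Windows with few reads, such as Krtap4-13, hold little information, and the parts of depth and mappability there were not tested.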

Other observations

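GENCODE M21 holds 16 further keratin and keratin-associated genes for which no window of the table is named. Their promoter windows gave 0 calls in limma. The highest in WT were the Krtap28-10 window on chromosome 1 (5.24 in WT and 6.05 in cKO, adjusted p = 0.419, every cKO library above every WT library) and the Krt88 window on chromosome 15 (5.01 and 5.26, adjusted p = 0.816). Krtap16-3 on chromosome 16 was at 2.58 in WT and 1.62 in cKO (adjusted p = 0.228), and Krt32 on chromosome 11 at 1.15 in WT and 1.61 in cKO (adjusted p = 0.491).

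Other arrays of tissue-restricted genes gave these values beside the keratin windows, whose WT median was 2.47 and median difference 0.242. The 1447 olfactory receptor windows had a WT median of 1.20 and a median difference of -0.205. The 1044 vomeronasal receptor windows had 1.02 and -0.418, and 242 of them had a mean input under 1. The 49 windows of the epidermal Sprr and Lce genes had 0.887 and -0.0904. The offset at 0 reads, lower on average in cKO, pulls the differences of windows with few reads downwards. Its part in these medians was not tested. Differences between these families were not tested.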
